A study of Homo sapiens with 6 samples.

Results

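Synaptotagmins, EHD proteins, sorting nexins and SNAREs are families of the membrane traffic machinery, and 84 protein-coding genes of these families were followed here among the 58721 rows of the count table. They were chosen by name: a symbol that is SYT, EHD, SNX, VAMP, STX or SNAP followed by a number, and SYTL1 to SYTL5. SYT11 and EHD3 had been picked for their low levels in R98W, so their difference between the groups is given as a description without a test. Polyadenylated RNA was sequenced in 6 libraries of A549, an established line of human lung adenocarcinoma cells. Of these, 3 were labelled as overexpressing wild-type KAT8 (WT) and 3 as overexpressing KAT8 carrying the amino acid substitution R98W. KAT8 (MOF) is a histone H4 lysine acetyltransferase. The labels give overexpression for both groups, without the promoter or clonality, and the KAT8 level of 1 WT library goes against its label. No library was labelled as parental or empty vector, so a rise or fall below means R98W relative to WT. The labels do not say whether replicates were separate cultures, so p-values reflect only how these libraries vary, possibly for technical reasons.

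Membrane carriers bud from one compartment, travel and fuse with another. SNAREs on the carrier (mostly VAMPs) and on the target membrane (syntaxins and SNAP proteins) zip together to drive fusion, and synaptotagmins, many of them calcium sensors, control when exocytic fusion happens. Sorting nexins bind phosphoinositides on endosomes and shape tubules that return cargo to the Golgi or the cell surface, and EHD proteins are ATPases that remodel and cut recycling membranes. In airway and other epithelial cells the same families serve receptor recycling, secretion and delivery to lysosomes.

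Library totals ran from 90007121 to 110152936 counts. The library labelled WT replicate 1 stood apart in the introduced gene: it held 12.2 CPM of KAT8 (counts per 1000000 of the scaled library total), against 184 to 195 CPM in the other WT libraries and 166 to 235 CPM in R98W. This low level goes against its label of overexpression, so each WT mean and each direction below rests in part on a library whose label is in doubt. Without it SYT6 was the only called member that lost its call, and no called member changed direction. Epithelial markers were abundant, with 5 of 5 found and a summed level of 7641 to 7807 CPM in WT and 7131 to 7727 CPM in R98W. The other marker lists summed to 10.5 to 14.4 CPM for fibroblasts, 0.392 to 0.853 CPM for endothelium, 7.30 to 8.34 CPM for blood and 31.3 to 35.5 CPM for neurons in WT, and to 11.6 to 12.97, 0.214 to 0.361, 6.06 to 8.88 and 35.0 to 38.9 CPM in R98W. COL1A2, DCN, VWF, TEK, PTPRC, CD3E and STMN2 each stayed under 0.1 CPM.

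The 250 bases upstream of the RefSeq start site (build GRCh38.p14, plus strand) are shown for SYT11, SYT16 and EHD3, which had the lowest ratios of R98W to WT among the members, and for EHD2, a relative of EHD3 with the opposite direction. Capitals mark the CCAAT motif, the SP1-type motif GGGCGG (or CCGCCC where it lies on the other strand), the core promoter motif TATAAA, and the letters CGGAAG (or CTTCCG where they lie on the other strand). Also searched on both strands were the CRE site TGACGTCA, the AP-1 site TGACTCA, the E-box CACGTG and the NRF1 motif, which were not found in these 4 windows. The windows lie at chr1:155859317-155859566 for SYT11, chr14:61811912-61812161 for SYT16, chr2:31233902-31234151 for EHD3 and chr19:47713172-47713421 for EHD2. GENCODE places the start 58 bases (SYT11), 188 bases (SYT16) and 79 bases (EHD2) before the RefSeq start, inside the window, and 185 bases after it for EHD3.
SYT11: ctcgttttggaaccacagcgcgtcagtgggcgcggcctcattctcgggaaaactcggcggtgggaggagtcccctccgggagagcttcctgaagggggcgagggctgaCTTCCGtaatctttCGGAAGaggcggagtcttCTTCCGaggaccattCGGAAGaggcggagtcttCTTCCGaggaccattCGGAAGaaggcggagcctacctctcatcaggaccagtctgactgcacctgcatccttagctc
SYT16: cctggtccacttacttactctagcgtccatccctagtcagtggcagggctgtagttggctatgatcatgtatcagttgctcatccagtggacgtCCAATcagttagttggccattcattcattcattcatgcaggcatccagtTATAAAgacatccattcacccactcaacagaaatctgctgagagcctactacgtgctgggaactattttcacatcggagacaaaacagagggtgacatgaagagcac
EHD3: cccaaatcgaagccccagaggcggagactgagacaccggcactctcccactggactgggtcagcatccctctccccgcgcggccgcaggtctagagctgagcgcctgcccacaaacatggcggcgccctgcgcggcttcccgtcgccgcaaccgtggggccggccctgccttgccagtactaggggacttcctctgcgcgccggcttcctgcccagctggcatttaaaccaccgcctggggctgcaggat
EHD2: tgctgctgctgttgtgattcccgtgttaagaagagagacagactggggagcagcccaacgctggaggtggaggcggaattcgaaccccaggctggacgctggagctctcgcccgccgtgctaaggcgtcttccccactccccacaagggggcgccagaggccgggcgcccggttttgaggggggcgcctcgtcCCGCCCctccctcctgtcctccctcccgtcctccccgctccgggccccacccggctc

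The SYT11 window carried CGGAAG 6 times. These letters hold GGAA, the core of sites bound by ETS-family transcription factors, and they were added to the search after the sequence had been read. The stretch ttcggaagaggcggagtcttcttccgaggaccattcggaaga, of 42 bases, occurs in 2 overlapping copies that begin 130 and 97 bases before the start. At least 1 CGGAAG was found in 16.5% of the 35116 RefSeq promoters of the same length, and 12 of them (0.0342%) held 6 or more. SYT16 was the only one of the 68 members matched to a promoter with TATAAA, a sequence found in 10.7% of all promoters. EHD3 held none of the 8 motifs. Of all promoters of this length, 32.0% held CCAAT, 1.65% the CRE site, 4.2% the AP-1 site and 5.07% the NRF1 motif, against 25.0%, 2.94%, 1.47% and 2.94% of the 68 member windows. The set of all promoters was not limited to protein-coding or tested genes. A match of letters is a description of the window, not a measured binding site.

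SYT11 (ENSG00000132718, chromosome 1, 155859509 to 155885199, hg38) is a synaptotagmin of vesicle and endosome traffic that lacks the usual calcium-dependent membrane binding. Its level was 2.45, 3.65 and 4.50 CPM in WT replicates 1 to 3, from 244, 420 and 427 counts. In R98W replicates 1 to 3 it was 0.122, 0.341 and 0.114 CPM, from 12, 33 and 12 counts. The groups did not overlap, and the R98W mean of 0.192 ± 0.129 CPM (SD, n = 3) was 5.44% of the WT mean of 3.53 ± 1.03 CPM. The log2 fold change of R98W over WT was -4.20 (SE 0.32), or -4.42 without the library labelled WT replicate 1, the WT library with the lowest SYT11. In bulk RNA, fewer cells with a transcript and less of it per cell cannot be told apart. The closest relative of SYT11, the vesicle protein SYT4, could not take part in the comparison: it had between 0 and 2 counts in each library.

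EHD3 (ENSG00000013016, chromosome 2, 31234337 to 31269447), which acts in recycling from early endosomes and in transport to the Golgi, stood at 21.7, 26.4 and 23.4 CPM in WT and at 6.05, 5.97 and 7.08 CPM in R98W. The R98W mean was 26.7% of the WT mean, the log2 fold change was -1.90 (SE 0.10), or -1.98 without the library labelled WT replicate 1, and the groups lay far apart relative to their spread. Its 3 relatives did not share this. EHD1, which drives recycling to the cell surface, was at 67.6, 60.1 and 57.5 CPM in WT and at 77.9, 84.5 and 91.9 CPM in R98W. It rose without overlap between the groups, past the threshold of 0.05 on the adjusted p, with a log2 fold change of 0.46 (SE 0.08 and adjusted p = 0.00013 by edgeR). EHD2, found at caveolae, had 182, 155 and 157 CPM in WT and 175, 202 and 198 CPM in R98W. The groups overlapped in 1 library, that labelled WT replicate 1, and the log2 fold change was 0.22 (SE 0.08 and adjusted p = 0.0295 by edgeR). EHD4, an endosomal member, had 24.7, 26.2 and 28.3 CPM in WT and 21.8, 22.7 and 25.4 CPM in R98W, and it did not pass the threshold (log2 fold change -0.18, 95% interval -0.35 to -0.02, edgeR adjusted p = 0.103). The EHD2 call was lost on leaving out WT replicate 2 or 3 or R98W replicate 2 or 3, with edgeR adjusted p from 0.0945 to 0.16, and after a correction for expression level (loess offsets that follow each library's deviation along mean log2 CPM), at a log2 fold change of 0.08 and 0.415. EHD4 passed once the library labelled WT replicate 1 or R98W replicate 3 was left out, with edgeR adjusted p of 0.0482 and 0.0474.

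Per kilobase of exon, the EHD order was the same at the top and changed below it. EHD2 led with 41.9 CPM per kb in WT and 48.8 in R98W, followed by EHD1 with 8.70 and 11.9. EHD3 was next in WT, at 5.14 CPM per kb, above EHD4 at 3.35, whereas in R98W EHD3 stood at 1.37, below EHD4 at 2.96. EHD3 made up 8.76% ± 1.33 of the summed EHD level in WT and 2.11% ± 0.18 in R98W (SD, n = 3). The sum itself was 59.1 ± 4.0 CPM per kb in WT and 65.0 ± 4.7 in R98W, with overlapping groups. In the corresponding sum over the 17 genes named SYT, SYT11 held 2.86% ± 0.87 in WT and 0.136% ± 0.087 in R98W, while SYT13 held 47.2% ± 1.0 and 54.5% ± 0.4.

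**Figure D1:**
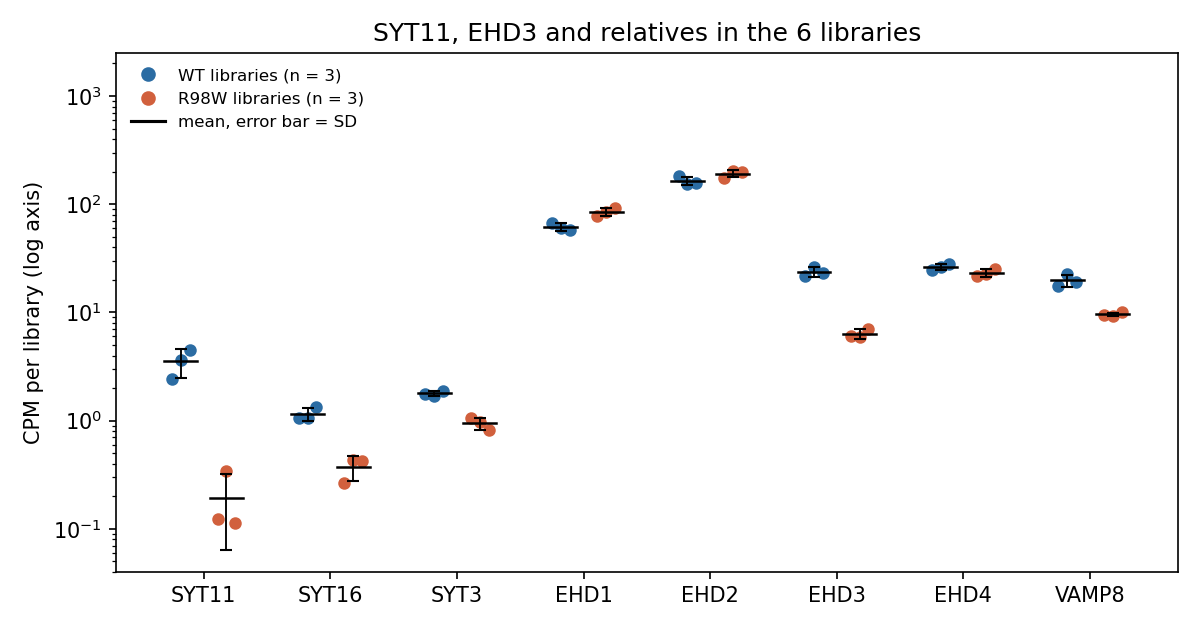
CPM in each library on a log axis for SYT11, SYT16, SYT3, the EHD genes and VAMP8. Points are libraries (blue WT, orange R98W, n = 3 each), and bars give the mean and SD. SYT11 lies at 2.45 to 4.50 CPM in WT and 0.114 to 0.341 CPM in R98W, and EHD3 at 21.7 to 26.4 CPM in WT and 5.97 to 7.08 CPM in R98W, the widest gap among the 4 EHD genes.

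Both genes lie beside an oppositely transcribed gene, and these neighbours were looked up after the SYT11 and EHD3 values were known. GON4L starts 109 bases from the GENCODE start of SYT11 and had a log2 fold change of -0.28 (SE 0.07 and adjusted p = 0.00379 by edgeR). RIT1, on the far side of SYT11, had 0.28 (SE 0.07 and adjusted p = 0.00441 by edgeR). CAPN14 starts 479 bases from EHD3 and had a log2 fold change of -1.48 (SE 0.51 and adjusted p = 0.0281 by edgeR), at 0.0723 to 0.391 CPM, while XDH on the other side had 0.10 (SE 0.22 and adjusted p = 0.772 by edgeR). The CAPN14 call was lost on leaving out WT replicate 2 or 3 or R98W replicate 2 or 3 (edgeR adjusted p from 0.0832 to 0.135) and with the correction for expression level (0.0554). Of the tested members, 9 had such a divergent protein-coding partner within 1000 bases, or 11.7%, compared with 8.59% of all tested protein-coding genes. These 9 held 6 lower genes (SYT11, EHD3, VAMP8, STX8, STX10 and SNX29) and 0 higher ones, and SYT11 and EHD3 had been picked for being low. Among all tested protein-coding genes with a divergent partner, 24.2% were lower and 19.2% higher, close to the 22.9% and 20.4% of those without one. For VAMP8 the GENCODE start used here is 16024 bases from the RefSeq start.

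Of the 84 members, 77 passed the filter on low counts and were tested. SYT8, SYT10 and SNX20 had 0 counts in each library, which allows up to 0.0316 CPM in the shallowest one, and SYT4, STX19, SNX31 and VAMP5 were below the filter. By edgeR's quasi-likelihood test at an adjusted p of 0.05, 19 of the 77 were higher and 20 lower in R98W, with SYT11 and EHD3, picked for being low, among the lower. The background over 20713 tested genes was 34.8% called, 16.2% higher and 18.5% lower. Calls are more frequent among well-expressed genes: of protein-coding genes that averaged 1 CPM or more, 47.2% were called, 23.4% higher and 23.8% lower. Of the 68 members at that level, SYT11 and EHD3 included, 54.4% were called, 18 higher and 19 lower, a share near this background. The median log2 fold change was -0.04 over the 77 members and -0.00 over all tested genes. Without SYT11 and EHD3, 49.3% of 75 tested members at any level were called, 19 higher and 18 lower. Without the library labelled WT replicate 1 the counts over all members were 19 higher and 23 lower.

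**Figure D2:**
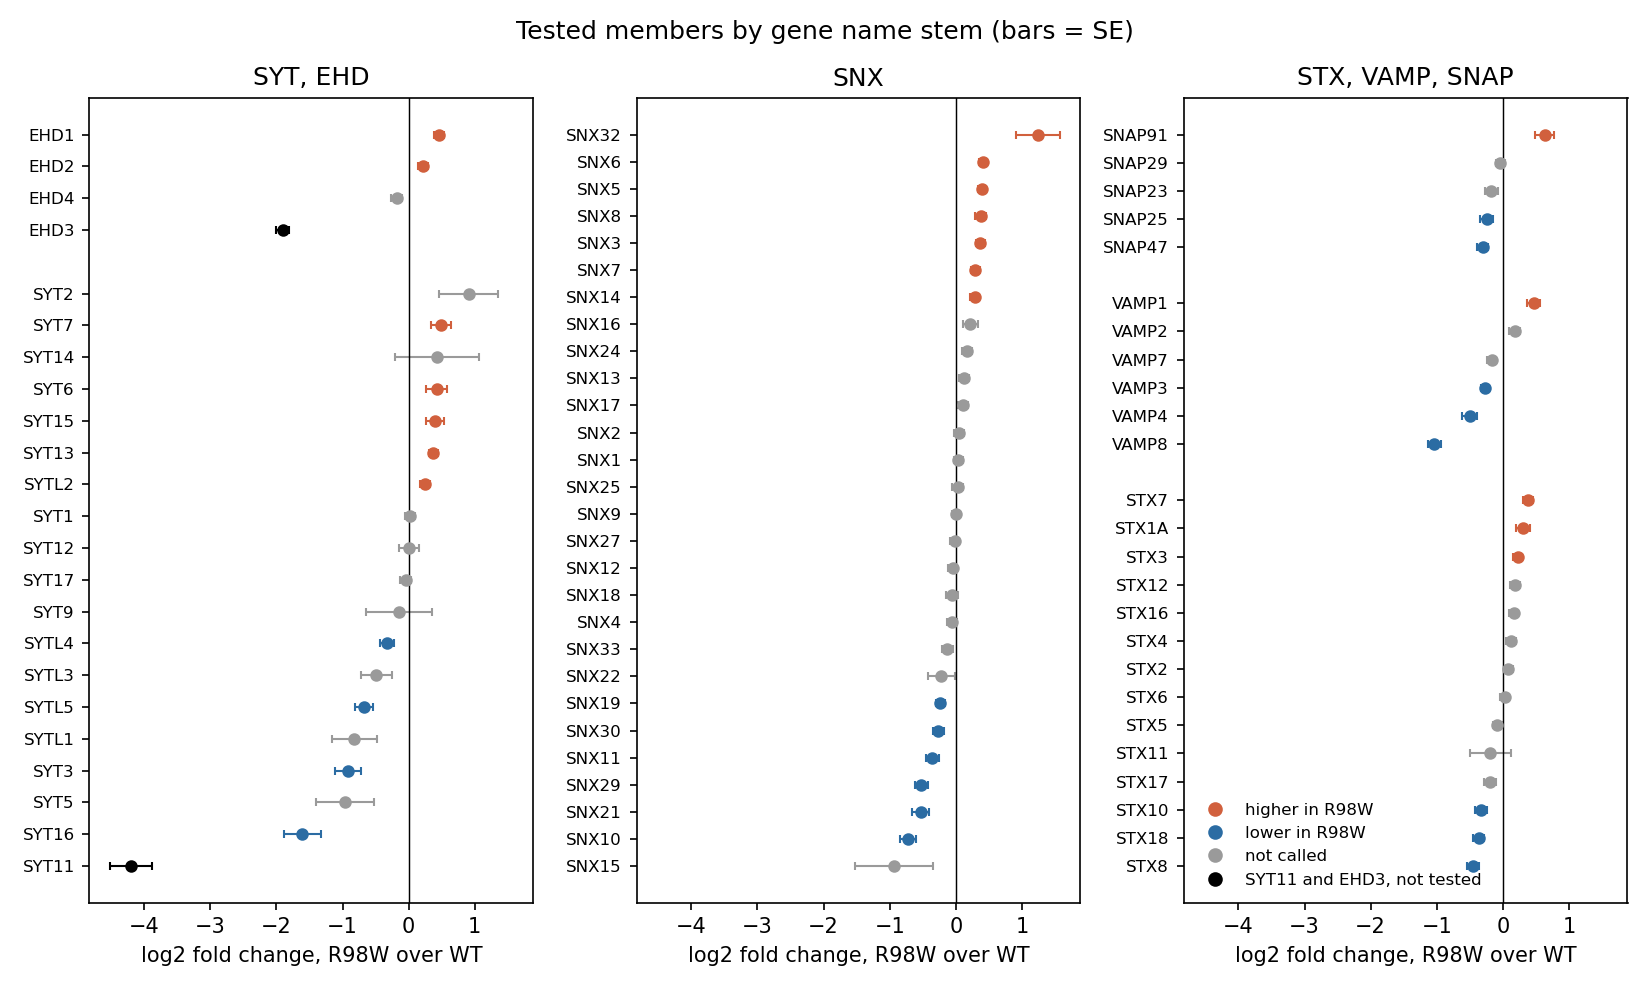
Log2 fold change of R98W over WT with its SE for 76 of the 77 tested members, sorted within each gene name stem. Orange points are higher and blue points lower by edgeR, grey points were not called, and SYT11 and EHD3 are black because they were picked for this difference. Most members lie within 1 unit of 0, and SYT11 and EHD3 are at -4.20 and -1.90.

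Calcium-binding synaptotagmins trigger exocytosis, and among the 8 genes of this kind 7 were tested, with 2 higher, 1 lower and a median log2 fold change of 0.02. The share called was 42.9%, against 34.8% of all tested genes and 47.2% of well-expressed protein-coding genes. SYT1, the calcium sensor of fast vesicle release and the most abundant of them, was at 44.6, 42.4 and 42.2 CPM in WT and at 44.3, 46.4 and 40.0 CPM in R98W. The groups overlapped, with a log2 fold change of 0.02 and a 95% interval of -0.12 to 0.16. SYT7, a slow high-affinity sensor also found on lysosomes, rose by 0.49 (SE 0.15) and SYT6 by 0.43 (SE 0.16). SYT3 fell from 1.78 ± 0.10 to 0.945 ± 0.119 CPM (SD, n = 3), with a log2 fold change of -0.92 (SE 0.20 and adjusted p = 0.00129 by edgeR). SYT2, SYT5 and SYT9 were under 0.6 CPM in every library and were not called. The SYT6 call ended in 5 of the 6 fits that leave out 1 library, the exception being WT replicate 3, with edgeR adjusted p from 0.0555 to 0.181, and without a filter, at 0.0512. The SYT7 call was lost on leaving out WT replicate 2 or R98W replicate 3, at 0.0804 and 0.0549.

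Of the 9 other synaptotagmins 7 were tested, with 2 higher and 2 lower, SYT11 among the lower. The share called was 57.1%, SYT11 included, against 34.8% of all tested genes and 47.2% of well-expressed protein-coding genes. SYT16 (ENSG00000139973, chromosome 14, 61811974 to 62112550) was at 1.05, 1.06 and 1.34 CPM in WT and 0.265, 0.434 and 0.426 CPM in R98W. It fell without overlap to 32.6% of the WT mean, with a log2 fold change of -1.61 (SE 0.28 and adjusted p = 0.000168 by edgeR). SYT13, the most abundant synaptotagmin per kilobase in these cells, went the other way. Its level was 64.1, 58.1 and 59.6 CPM in WT and 79.0, 80.9 and 75.3 CPM in R98W, again without overlap. The SYT13 log2 fold change was 0.37 (SE 0.07 and adjusted p = 0.000246 by edgeR). SYT15 rose by 0.40 (SE 0.13), a call lost on leaving out WT replicate 2 or 3 or R98W replicate 1 or 2 (edgeR adjusted p from 0.0676 to 0.123). SYT12, SYT14 and SYT17 were not called.

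The synaptotagmin-like proteins SYTL1 to SYTL5 bind RAB27 on secretory granules and tether them near the plasma membrane. SYTL5 was at 5.61, 6.61 and 6.62 CPM in WT and 3.84, 4.61 and 3.35 CPM in R98W. It fell without overlap, with a log2 fold change of -0.68 (SE 0.14 and adjusted p = 0.000731 by edgeR). SYTL4, also called granuphilin, fell by 0.33 on the log2 scale, and SYTL2, the most abundant of the 5, rose by 0.25. SYTL4, at a mean of 8.06 CPM, overlaps SRPX2 on the other strand, which was at 10.6 CPM and not called. SYTL1 and SYTL3 had log2 fold changes of -0.82 (SE 0.34) and -0.49 (SE 0.23) and were not called, so the median of the 5 was -0.49 with 1 higher and 2 lower. That is 60% of only 5 genes called, against 47.2% of well-expressed protein-coding genes. SYTL1 passed without WT replicate 3 and SYTL3 without the library labelled WT replicate 1, at edgeR adjusted p of 0.041 and 0.0375. The SYTL4 call ended without WT replicate 3, R98W replicate 2 or R98W replicate 3 (edgeR adjusted p of 0.072 to 0.0868) and after the correction for expression level (0.121), and that of SYTL2 without WT replicate 3 (0.057).

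Sorting nexins with a BAR domain bend endosomal membrane into tubules. SNX1 or SNX2 pairs with SNX5, SNX6 or SNX32 to carry cargo from endosomes to the Golgi, and in these cells the SNX5 side of the pair rose while the SNX1 side was not called. SNX5 was at 267, 242 and 245 CPM in WT and 333, 330 and 327 CPM in R98W, or 0.39 as a log2 fold change (SE 0.06 and adjusted p = 8.59e-05 by edgeR). SNX6 was at 111, 101 and 114 CPM in WT and 143, 145 and 144 CPM in R98W, or 0.41 as a log2 fold change (SE 0.07 and adjusted p = 7.75e-05 by edgeR). SNX5 overlaps MGME1 on the other strand, which was at 72.9 CPM and higher by 0.29. In SNX5 and SNX6 the groups stood clearly apart, and the R98W libraries differed little from each other. SNX32, a rarer relative of this pair, was at 0.392, 0.235 and 0.232 CPM in WT and at 0.743, 0.651 and 0.644 CPM in R98W. Its log2 fold change was 1.247 (SE 0.33 and adjusted p = 0.00628 by edgeR). SNX32 overlaps CFL1 on the other strand, an abundant gene at 672 CPM that was itself higher by 0.31 (a call lost with the correction for expression level, at an edgeR adjusted p of 0.176), and the part of its reads in the SNX32 value was not tested. SNX1 had a log2 fold change of 0.04 (95% interval -0.08 to 0.16) and SNX2 of 0.05 (-0.10 to 0.19). Intervals for SNX1 and SNX2 ended below the estimates of SNX5 and SNX6, although the difference between genes was not tested. After the correction for expression level the SNX5 log2 fold change was 0.23 and stayed past the threshold (edgeR adjusted p = 0.0051). Summed over the 5 genes, the level went from 90.7 ± 1.0 CPM per kb in WT to 110.4 ± 1.1 in R98W (SD, n = 3).

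**Figure D3:**
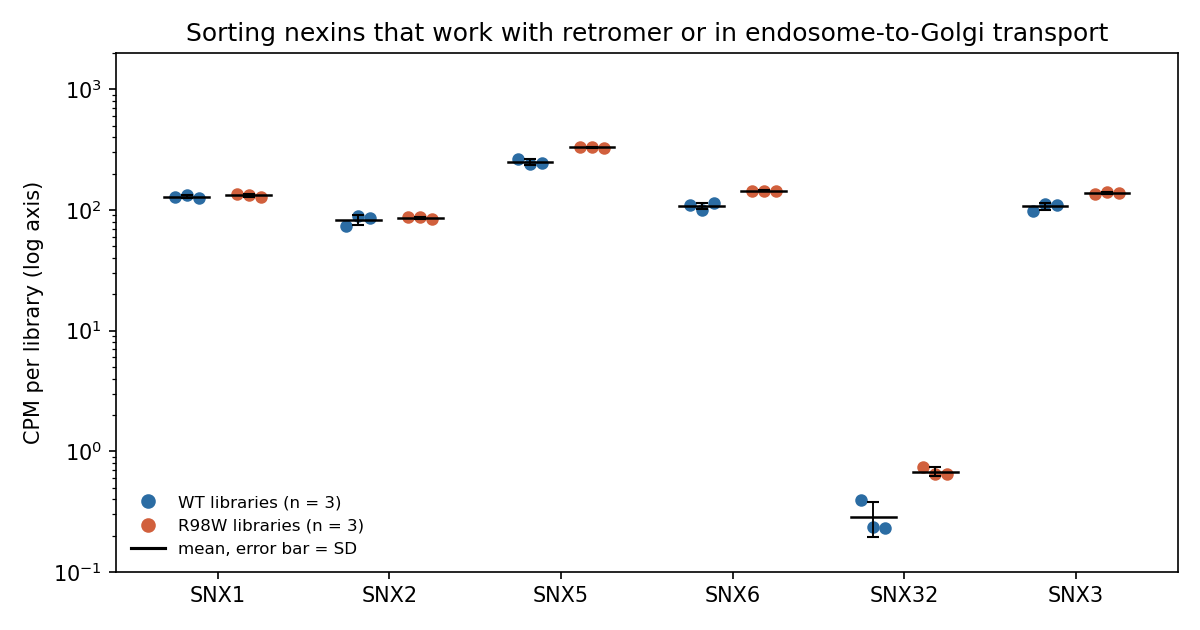
CPM in each library on a log axis for the endosome-to-Golgi sorting nexins and SNX3. Points are libraries (blue WT, orange R98W, n = 3 each), and bars give the mean and SD. SNX5, SNX6, SNX32 and SNX3 sit higher in R98W without overlap, and SNX1 and SNX2 overlap.

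SNX3, a retromer partner with a PX domain and no BAR domain, was the most abundant member per kilobase, at 58.1 CPM per kb in WT and 74.9 in R98W. Its values were 98.5, 112 and 110 CPM in WT and 136, 140 and 139 CPM in R98W. It rose without overlap, with a log2 fold change of 0.37 (SE 0.07 and adjusted p = 0.000278 by edgeR). SNX17, which recycles integrins and lipoprotein receptors with its FERM domain and came next among the sorting nexins, was at 159, 179 and 153 CPM in WT and 175, 162 and 191 CPM in R98W. It was not called (log2 fold change 0.10, 95% interval -0.04 to 0.25), and neither was SNX27, the retromer adaptor with a PDZ domain, at -0.02 (-0.16 to 0.13).

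The 11 sorting nexins with a PX domain but no BAR, FERM or RGS part included 10 tested genes, of which 1 was higher (SNX3) and 4 lower. That is 50% called, near the 47.2% of well-expressed protein-coding genes (23.4% higher, 23.8% lower). SNX10, which acts on endosomes and in osteoclasts, was at 12.0, 11.1 and 16.5 CPM in WT and 8.19, 7.84 and 7.91 CPM in R98W. It fell without overlap, with a log2 fold change of -0.72 (SE 0.12 and adjusted p = 0.000171 by edgeR). SNX21 had -0.53 (SE 0.13), SNX29 -0.52 (SE 0.10) and SNX11 -0.35 (SE 0.10) on the log2 scale. SNX21, at a mean of 4.18 CPM, overlaps ACOT8 on the other strand, which was at 7.48 CPM and fell by 0.57. The part of ACOT8 reads in the SNX21 value was not tested. Among the other BAR proteins SNX8 rose by 0.37 and SNX7 by 0.30, and SNX30 fell by 0.26. SNX8, at a mean of 33.3 CPM, overlaps EIF3B on the other strand, which was at 355 CPM and not called. SNX9, SNX18 and SNX33, which act with dynamin in endocytosis, and the recycling protein SNX4 were not called, with SNX9 at 0.00 (95% interval -0.13 to 0.13). In the RGS group, whose members tether lipid droplets or the endoplasmic reticulum to other organelles, SNX14 rose by 0.29 and SNX19 fell by 0.23. The SNX11 call was lost on leaving out WT replicate 2, at a log2 fold change of -0.23 and edgeR adjusted p of 0.0628, and without R98W replicate 2, at 0.058. Those of SNX19 and SNX30 ended without R98W replicate 3, at 0.0789 and 0.0633.

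Cell surface fusion pairs VAMP1, VAMP2 or VAMP3 with syntaxins 1 to 4 and SNAP23 or SNAP25. Of these SNAREs 11 of 13 were tested, and 3 were higher and 2 lower. That is 45.5% called, near the 47.2% of well-expressed protein-coding genes. VAMP1 was at 7.91, 8.34 and 7.76 CPM in WT and 10.9, 10.96 and 11.2 CPM in R98W, a rise of 0.46 on the log2 scale (SE 0.10 and adjusted p = 0.00102 by edgeR). VAMP3, the widespread recycling form and the most abundant VAMP per kilobase, was at 90.4, 94.4 and 92.2 CPM in WT and 75.5, 79.3 and 75.1 CPM in R98W. Its groups did not overlap, and the log2 fold change was -0.27 (SE 0.06 and adjusted p = 0.00259 by edgeR). VAMP2 had 0.18 (SE 0.08) and was not called. STX3, of apical delivery in epithelia, rose by 0.22 and STX1A by 0.31, whereas STX2, STX4 and STX11 were not called. STX1A, at a mean of 17.7 CPM, overlaps BUD23 on the other strand, which was at 80.8 CPM and not called. SNAP25 was at 12.7, 13.9 and 14.2 CPM in WT and 11.7, 12.1 and 10.6 CPM in R98W, or -0.25 as a log2 fold change (SE 0.09 and adjusted p = 0.0477 by edgeR). Its ubiquitous relative SNAP23 was at 16.4, 18.001 and 15.1 CPM in WT and 14.99, 15.6 and 13.2 CPM in R98W, with overlap and no call (-0.18, 95% interval -0.36 to 0.01).

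The SNAP25 call was the least stable among the members, ending in 10 of 16 alternatives at edgeR adjusted p of 0.057 to 0.189, among them each fit that leaves out a library other than that labelled WT replicate 1. The STX1A call was lost on leaving out WT replicate 2 or 3 or R98W replicate 3, with 0.18 on the log2 scale and an edgeR adjusted p of 0.227 in the last case and 0.119 and 0.117 in the others. That of STX3 ended without WT replicate 3 or R98W replicate 1 or 2, at 0.0652 to 0.12. SNAP47, a SNAP25 relative of internal membranes, was at 24.1, 28.5 and 23.6 CPM in WT and 20.5, 20.4 and 20.7 CPM in R98W, and fell by 0.31 on the log2 scale (SE 0.08 and adjusted p = 0.00787 by edgeR). SNAP91 shares the name stem but is a clathrin adaptor and no SNARE. It was at 3.25, 2.51 and 3.13 CPM in WT and 4.90, 4.71 and 4.16 CPM in R98W, a rise of 0.63 (SE 0.14 and adjusted p = 0.00195 by edgeR).

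Fusion of late endosomes with each other and with lysosomes uses STX7, STX8, VTI1B and VAMP8, and the 3 members in this set went in both directions. VAMP8 (ENSG00000118640, chromosome 2, 85561562 to 85582031) was at 17.4, 22.5 and 19.3 CPM in WT and 9.56, 9.26 and 10.0 CPM in R98W. It fell to 48.7% of the WT mean without overlap, with a log2 fold change of -1.04 (SE 0.10 and adjusted p = 2.57e-07 by edgeR). STX8 was at 20.2, 25.7 and 23.1 CPM in WT and 17.1, 16.8 and 16.8 CPM in R98W, and fell by 0.45 on the log2 scale (SE 0.09 and adjusted p = 0.000707 by edgeR). STX7 was at 36.5, 32.5 and 36.0 CPM in WT and 46.5, 45.0 and 45.2 CPM in R98W, a rise of 0.38 (SE 0.07 and adjusted p = 0.000368 by edgeR). VTI1B had -0.08 (SE 0.07) and was not called. Thus within one fusion complex 2 genes were lower, 1 was higher and 1 was not called.

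VAMP7, the other late endosomal VAMP, was at 68.8, 73.1 and 71.6 CPM in WT and 66.2, 66.4 and 56.9 CPM in R98W. The groups did not overlap, but the difference missed the threshold (log2 fold change -0.17, 95% interval -0.31 to -0.03, edgeR adjusted p = 0.0706), and it passed in 4 alternatives, without the library labelled WT replicate 1 (0.0453), with at least 50 counts in 3 libraries (0.0436), and with the corrections for expression level (-0.24, 0.0132) and GC content (-0.24, 0.00596). VAMP8 also serves autophagosome fusion with STX17 and SNAP29. SNAP29 was at 44.0, 41.6 and 44.4 CPM in WT and 43.4, 44.7 and 38.6 CPM in R98W, and neither SNAP29 (-0.04, 95% interval -0.18 to 0.11) nor STX17 (-0.19, -0.37 to -0.02) was called. STX17 passed without R98W replicate 1, at an edgeR adjusted p of 0.0464. The early endosomal STX12 had 0.18 (SE 0.08) and was not called. The summed level of all 7 VAMP genes was 92.4 ± 3.7 CPM per kb in WT and 74.7 ± 2.7 in R98W (SD, n = 3).

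**Figure D4:**
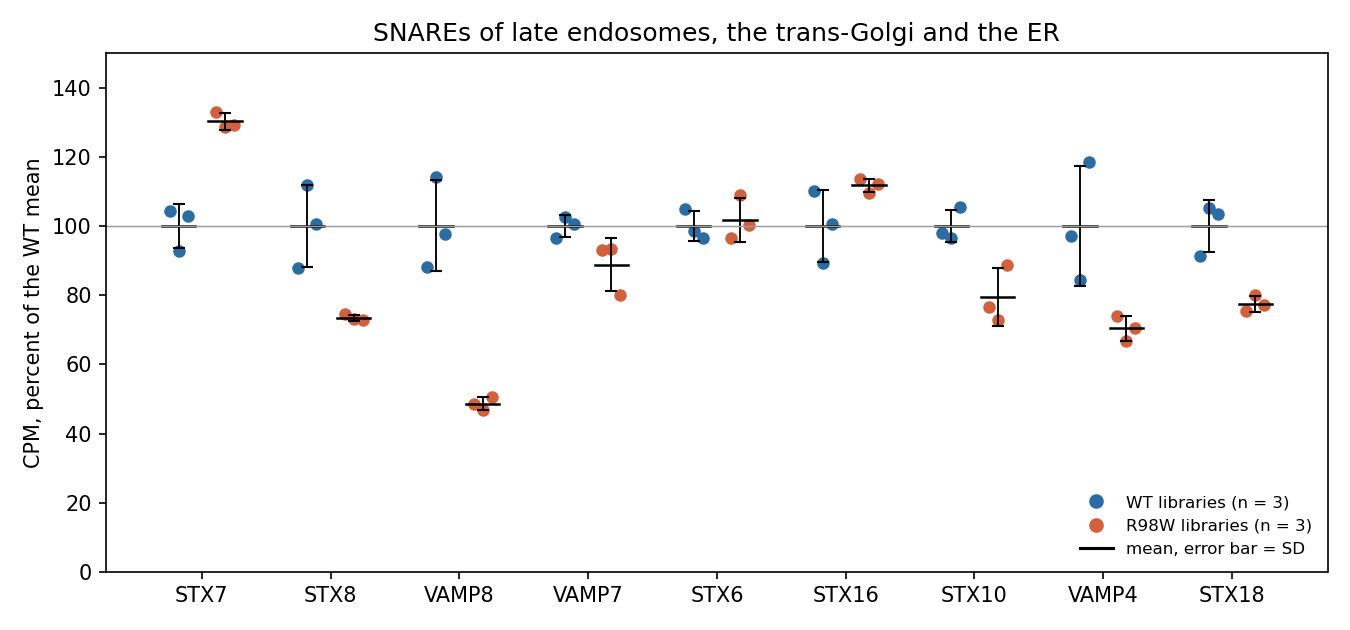
CPM of SNAREs in each library as a percent of the WT mean of the same gene, which is 100. Points are libraries (blue WT, orange R98W, n = 3 each), and bars give the mean and SD. VAMP8 is at 48.7% in R98W, STX8, STX10, VAMP4 and STX18 lie between 70.4% and 79.4%, and STX7 is at 130%.

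At the trans-Golgi network STX6, STX16, VTI1A and VAMP4 receive carriers from endosomes, and STX10 takes part in a related complex. VAMP4 was at 10.7, 9.31 and 13.1 CPM in WT and 8.14, 7.35 and 7.79 CPM in R98W, and fell by 0.50 on the log2 scale (SE 0.12 and adjusted p = 0.00247 by edgeR). STX10 was at 19.3, 19.0 and 20.8 CPM in WT and 15.1, 14.3 and 17.5 CPM in R98W, and fell by 0.33 (SE 0.09 and adjusted p = 0.00746 by edgeR), a call that ended without R98W replicate 2, at 0.0566. STX16 was at 60.5, 49.2 and 55.3 CPM in WT and 62.4, 60.2 and 61.7 CPM in R98W, with overlap. It was not called (0.16, 95% interval 0.01 to 0.31) but passed without the library labelled WT replicate 1, at an edgeR adjusted p of 0.027, and STX6 was not called either (0.03, -0.11 to 0.17). VTI1A, the partner outside the families, fell from 27.9, 28.6 and 30.9 CPM in WT to 21.6, 22.6 and 20.4 CPM in R98W (log2 fold change -0.44, SE 0.08 and adjusted p = 0.000247 by edgeR).

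In retrograde fusion at the endoplasmic reticulum STX18 acts with BNIP1 and USE1. STX18 was at 17.9, 20.6 and 20.2 CPM in WT and 14.7, 15.7 and 15.1 CPM in R98W, and fell by 0.37 (SE 0.09 and adjusted p = 0.00239 by edgeR). BNIP1 fell from 6.76, 9.75 and 9.50 CPM in WT to 4.40, 4.02 and 5.41 CPM in R98W (log2 fold change -0.91, SE 0.15 and adjusted p = 7.65e-05 by edgeR), and USE1 was not called, at -0.01 (SE 0.14). STX18, at a mean of 17.4 CPM, overlaps the scarce antisense gene STX18-AS1, which was at 0.856 CPM and fell by 2.002 on the log2 scale. The Golgi syntaxin STX5, the most abundant syntaxin per kilobase, was at 29.9, 30.2 and 28.0 CPM in WT and 28.4, 27.5 and 27.3 CPM in R98W, with overlap and no call (-0.08, 95% interval -0.23 to 0.06).

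Other genes of these pathways were read from 5 lists written from textbook knowledge, to be set against the background of 34.8% called (16.2% higher, 18.5% lower) over all tested genes and 47.2% (23.4% and 23.8%) over protein-coding genes of 1 CPM or more. SNAREs outside the name stems had 1 higher and 3 lower of 13 tested, with a median log2 fold change of -0.05. The 1 higher gene, BET1L, lost its call without WT replicate 2 or 3 or R98W replicate 1 or 3, which left 0. Among SM proteins, NSF and its cofactors, 3 were higher and 5 lower of 17 tested, with a median of -0.03. VPS45, the SM protein that works with STX16, fell from 36.3, 41.1 and 37.3 CPM to 24.3, 23.3 and 20.5 CPM (log2 fold change -0.75, SE 0.08 and adjusted p = 1.25e-06 by edgeR). STXBP3, which binds STX4, rose by 0.47 (SE 0.07). EHD partners and recycling adaptors had 3 higher and 3 lower of 14, with a median of 0.05. The lower genes were RAB11FIP4 at -0.99 (SE 0.10), the early endosomal RBSN at -0.46 (SE 0.07) and PACSIN1 at -0.71 (SE 0.23), and the higher ones, like PACSIN1 chosen after their values were seen, were MICALL1 at 0.36 (SE 0.08), MICALL2 at 0.43 (SE 0.12) and PACSIN2 at 0.23 (SE 0.07). Without WT replicate 3 or R98W replicate 3 this list had 1 higher gene, MICALL1, and PACSIN1 lost its call on leaving out WT replicate 2 or 3 or R98W replicate 2 or 3 (edgeR adjusted p from 0.0677 to 0.12). With the correction for expression level PACSIN1 (0.0659) and PACSIN2 (0.11 on the log2 scale, 0.2002) lost theirs. Other C2 domain proteins of exocytosis and membrane contact had 3 higher and 8 lower of 19, with a median of -0.14. Their lower genes had WT means from 0.297 CPM (OTOF) to 11.4 CPM (RIMS3). The higher ones had WT means from 4.31 CPM (DOC2B) to 856 CPM (MYOF). DOC2B, a soluble calcium sensor, rose from 4.57, 4.94 and 3.43 CPM to 11.1, 8.47 and 8.95 CPM, and the active zone gene RIMS3 had -0.97 (SE 0.12). The lower count of that list was 4 without WT replicate 2 or R98W replicate 3.

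Retromer, retriever and commander genes, which sort cargo on the same endosomes as the sorting nexins, had 6 higher and 5 lower of 18, with a median log2 fold change of 0.04, or 61.1% called against the 47.2% of well-expressed genes. Commander subunits went in both directions. COMMD9 and COMMD4 had the smallest p of the list, and COMMD9 fell from 21.3, 25.2 and 23.3 CPM to 10.6, 10.2 and 8.67 CPM (log2 fold change -1.24, SE 0.10 and adjusted p = 2.28e-08 by edgeR) and COMMD4 by 0.82 (SE 0.09). COMMD10, chosen after its value was seen, rose by 0.50 (SE 0.07 and adjusted p = 1.23e-05 by edgeR). Chosen after their values were seen, the retromer core genes VPS35, VPS26A and VPS29 rose by 0.17, 0.23 and 0.25 on the log2 scale. With the correction for expression level they lost their calls, at edgeR adjusted p of 0.893, 0.214 and 0.0654, which left 3 higher genes in the list. The VPS35 call was also lost on leaving out the library labelled WT replicate 1, WT replicate 3 or R98W replicate 1 or 2, at 0.05 to 0.125, and that of VPS26A without WT replicate 2 or R98W replicate 2, at 0.0654 and 0.0951. The lower count was 8 without the library labelled WT replicate 1, and 3 without WT replicate 2, WT replicate 3, R98W replicate 2 or R98W replicate 3.

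Upstream windows of the members were richer in G and C than those of all RefSeq promoters, with a median of 67.2% over the 68 members matched by symbol and 58.0% over all 35116. The 35116 were not limited to protein-coding or tested genes, as the members were protein-coding and mostly tested. The difference may therefore not be particular to these families. Among members the median was 70.8% for the 15 higher genes with a window, 60.8% for 17 lower genes and 66.8% for 32 genes that were not called. Some windows lie far from the GENCODE start, by 41920 bases for STX3 (higher), 18278 for SYT3 (lower) and 122859 for SNX9 (not called). Differences between these groups of members were not tested. GGGCGG, the GC box bound by SP1-type factors, was present in 12 of the 15 higher, 9 of the 17 lower and 24 of the 32 uncalled members, against 42.6% of all promoters. CACGTG, an E-box, was found in 2 of the higher, 0 of the lower and 4 of the uncalled members, against 6.34% of all promoters. With a correction for GC content, chosen after the data were seen, 22 members were higher and 22 lower, and no called member lost its call or changed direction.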

How the data were processed

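The deposited values were unnormalised read counts, 1 row per gene. Per the submitters' processing notes, the tools were HISAT2 2.1.0, HTSeq 0.11.3 and CASAVA 1.8, with build hg38. Neither annotation nor strand setting is given in the labels or headers, so reads of overlapping genes on opposite strands cannot be told apart. Identifiers were matched to GENCODE 29 (58676 of 58721 rows, the others being copies of genes shared by chromosomes X and Y, VAMP7 included). The values of 1 member are not reported here. The readthrough gene STX16-NPEPL1 was not counted as a member. Members with pseudogene copies (SNX2, SNX3, SNX5, SNX6, SNX18, SNX19, SNX29, SNX33, STX8, SNAP23 and SYT14) and the duplicated SYT15 are uncertain where reads could be split.

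edgeR 4.0.16 (R 4.3.3) kept 20713 genes (filterByExpr, minimum count 10, total 15), scaled by TMM and tested R98W against WT by quasi-likelihood in all 6 libraries, with Benjamini-Hochberg adjustment over all tested genes and a threshold of 0.05. The SE comes from the test statistic, and 95% intervals are 1.96 SE to either side. CPM used TMM-scaled totals, and CPM per kb divides by the exon length in GENCODE. In simulated counts for this comparison (20307 genes tested) calls recovered 20% of changes of 1.25-fold, 58% of 1.5-fold, 76% of 2-fold and 92% of 4-fold, with 8 false calls. Only 50 genes per fold were changed in the simulation, against 7203 genes called in the data. The adjusted threshold was therefore stricter in the simulation, and these shares do not give the recovery in the data. Alternatives used DESeq2 1.42.0, limma 3.58.1, other scalings and filters, a replicate block, a correction for expression level and leaving out each library, and, chosen after the data were seen, corrections for GC content and exon length. Upstream sequences are from RefSeq (GRCh38.p14). Values per library were given for SYT11, the EHD genes, and in each other stem the 4 members with the smallest p and the 2 most abundant per exon length, and each called member was named. SNX32, USE1, VTI1B, VPS35, VPS26A, VPS29, BET1L, COMMD10, PACSIN1, PACSIN2, MICALL1, MICALL2 and the neighbouring genes were added after their values were seen. VPS26B, MYOF and OTOF were added in the same way. Correlations with SYT11 and EHD3 over libraries were not used, since the libraries form 2 groups. Members and lists were chosen with earlier results of these data known.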

Additional observations from a re-analysis of the deposited data

How the results depend on the processing

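Without SYT11 and EHD3, which were picked for being low, 24 of 37 called members kept direction and call in each of 16 alternatives. No call changed direction, and 12 of the 38 members not called passed in at least 1 alternative. Members higher and lower were 19 and 20 with DESeq2, limma-voom and upper quartile scaling, and ran from 14 to 19 and from 16 to 23 when 1 library was left out. With counts this deep, members under 1 CPM such as SNX32 and SYT16 still rest on few reads. Higher SNAREs outside the stems went from 1 to 0 without a filter, under the replicate block and after the correction for expression level. That correction also left 3 higher retromer and commander genes, and the exon length correction 3 lower ones. The cause was not tested. Leaving out 1 library gave 1 to 3 higher EHD partners, 0 to 1 higher outside SNAREs, 4 to 7 lower C2 domain genes, and 4 to 6 higher and 3 to 8 lower retromer and commander genes.

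Replicate numbers did not pair the samples: same-numbered libraries had correlations of 0.0056, -0.039 and -0.037 between deviations from their group means, and not every library correlated best with its own number. With the number as a replicate block 19 members were higher and 19 lower, the lost call being SNAP25, at an edgeR adjusted p of 0.0709.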

Other observations

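The CGGAAG count of the SYT11 window was compared over all tested genes matched to a RefSeq promoter, after the SYT11 sequence had been read. ING4, TPRKB and SYT11 were the 3 tested genes with 6 or more copies, and their log2 fold changes were -0.66 (SE 0.10, edgeR adjusted p = 2.77e-05) for ING4, -0.25 (SE 0.08, edgeR adjusted p = 0.0285) for TPRKB and -4.20 for SYT11. SYT11 had been picked for its low level and its window gave the motif, so SYT11 cannot count toward a link between copies and direction. The TPRKB call was lost on leaving out any library other than that labelled WT replicate 1 (edgeR adjusted p from 0.0624 to 0.165) and with the exon length correction (0.0562). Of 179 genes with 3 or more copies 30 were higher and 49, SYT11 among them, lower (27.4% lower, median log2 fold change -0.05). Of 2903 with 1 or 2 copies 588 were higher and 692 lower (23.8% lower, median -0.008). Of 8891 with 0 copies 1725 were higher and 2006 lower (22.6% lower, median -0.012). The classes were not compared by a test.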
